A study of Mus musculus with 203 samples.

Results

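ACP neurons were 53 of the single nucleus ambiguus (Amb) neurons of this series, or 26.1% of all of them. They were taken as the neurons to which the deposited annotation gives the ACP cluster, matched by name to the columns of the count table. All 53 had been labeled from the heart. The rest of the series were 98 further heart-labeled neurons annotated as ACV and 52 neurons labeled from the larynx, and these 2 types served only as reference.

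All neurons came from wild-type C57BL/6 mice, which the methods give as C57BL/6NCrl. Cholera toxin B tracer was placed at postnatal day 1 in the pericardial space or the cricothyroid muscle, and labeled cell bodies were aspirated from brainstem slices at postnatal days 2 to 4. Each neuron was sequenced by Smart-seq2, in which full-length cDNA is amplified by PCR without molecular identifiers. The labels name no mouse, litter or plate, so each type counts as 1 sample, no test between types was made, and an SD given here is the spread between neurons and not the error of a type. The study also divided the heart-labeled neurons into ACP and ACV by clustering these counts. Differences between ACP and ACV are therefore descriptions of the annotation. The Larynx type holds the neurons labeled from the larynx, and differences of ACP from it still rest on 1 sample per type.

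Neurons of the Amb that project to the heart are parasympathetic preganglionic neurons. They release acetylcholine onto neurons of the cardiac ganglia, which in turn slow the heart. Laryngeal neurons of the same nucleus are motor neurons of striated muscle.

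Total counts per ACP neuron ran from 854487 to 3175434 around a median of 1918118. Up to 75.9% of these counts, with a median of 34.3%, lay on the ribosomal RNA gene Rn45s. Levels are therefore given as counts per 1000000 counts of the neuron other than Rn45s (CPM), a total which ran from 330407 to 2396541 counts in ACP. Median totals without Rn45s were 1115375 in ACP, 1120512 in ACV and 560892 in Larynx neurons. Apoe, an astrocyte gene, had 3 to 6357 counts in ACP neurons, with a median of 961. In 11 of the 53 ACP neurons and 28 of the 98 ACV neurons it exceeded 1800 counts, the limit for removal in the methods, and in 0 of the 52 Larynx neurons. In the 42 ACP neurons within that limit the 5 markers described below had mean levels of 272.5 CPM for Pappa2, 220.2 for Megf11, 260.6 for Brinp3, 150.9 for Trhr and 193.8 for Calb1, and for other results the values within it are given where they move by over 1.5 times.

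ACP neurons had reads on 17129 of the 24028 genes other than Rn45s. Of these, 7967 were read in at least 50% of ACP neurons and 740 in all 53. The same count for each gene list below stands against this 7967 of 24028 genes. When each neuron was thinned at random to 118492 counts, the smallest total in the series, 6575 genes were read in at least 50% of ACP neurons, 6389 in ACV and 6216 in Larynx. Mean levels reached 10 CPM for 9621 genes, 100 CPM for 2380 and 1000 CPM for 91. Per kilobase of exon, the 10 genes of highest level were Tuba1a, Stmn3, Tubb2a, Tubb3, Calm2, Sncg, Nefl, Bex2, Tmsb4x and Actb. They ran from 5809 CPM per kb for Tuba1a, an alpha-tubulin, to 1278 CPM per kb for Actb, cytoplasmic actin. Tubulin and calmodulin genes have near-identical copies and Nefl shares exon sequence with Nefm in the annotation, so the split of reads among them is uncertain.

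The 5 marker genes of the type all had reads in ACP neurons. The label came from clustering these same counts, so the markers are no independent check of it. Pappa2, on chromosome 1 from 158711727 to 158980490 (mm10, minus strand), encodes a secreted protease that cuts insulin-like growth factor binding proteins. Its lowest, median and highest levels in ACP neurons were 0, 133.9 and 1262 CPM, and its mean was 254.8 ± 299 (SD, n = 53 neurons). The mean was 1.36 CPM in ACV and 15.7 CPM in Larynx neurons. It was read in 50 of 53 ACP neurons, or 94.3% (exact Clopper-Pearson 95% interval 84.3% to 98.8%, for the counting of neurons only), in 5 of 98 ACV neurons and in 11 of 52 Larynx neurons. After thinning, these shares were 92.5%, 3.06% and 19.2%. Pappa2 was thus read in nearly every ACP neuron, in few ACV neurons and in a minority of Larynx neurons. Its range overlapped those of both other types, with highest neurons at 70.3 CPM in ACV and 412.3 CPM in Larynx. All 26 ACP neurons with at most 900 Apoe counts had Pappa2 reads.

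Megf11, a transmembrane protein with EGF-like repeats (chromosome 9, 64385626 to 64709205, plus strand), and Brinp3, a secreted neuronal protein (chromosome 1, 146494760 to 146902472, plus strand), were read in all 53 ACP neurons. Megf11 ran from 9.75 to 1305 CPM with a median of 160 and a mean of 223 ± 222 (SD, n = 53). Brinp3 ran from 0.956 to 1117 CPM with a median of 236 and a mean of 254.2 ± 202.7 (SD, n = 53). Neither set ACP apart from both other types. Mean levels of Megf11 were 20.2 CPM in ACV and 197.6 CPM in Larynx neurons. Those of Brinp3 were 29.97 and 139.1 CPM.

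Trhr, the receptor for thyrotropin-releasing hormone (chromosome 15, 44196135 to 44235912, plus strand), and Calb1, the calcium-binding protein calbindin (chromosome 4, 15881264 to 15908064, plus strand), were patchier. Trhr had a median of 111.03 and a highest level of 826 CPM, and was read in 40 of 53 neurons. Calb1 had a median of 117.8 and a highest level of 669 CPM, and was read in 41 of 53. Both were 0 in the lowest neurons, so their ranges overlapped those of both other types. Means were 158.1 ± 173.8 and 175.8 ± 189.4 CPM (SD, n = 53). In ACV and Larynx neurons the mean level of Trhr was 4.82 and 20.6 CPM, and that of Calb1 was 38.8 and 29.9 CPM. The 2 genes were not missing from the same neurons only. Both were read in 34 neurons, Trhr alone in 6, Calb1 alone in 7 and neither in 6.

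**Figure D1:**
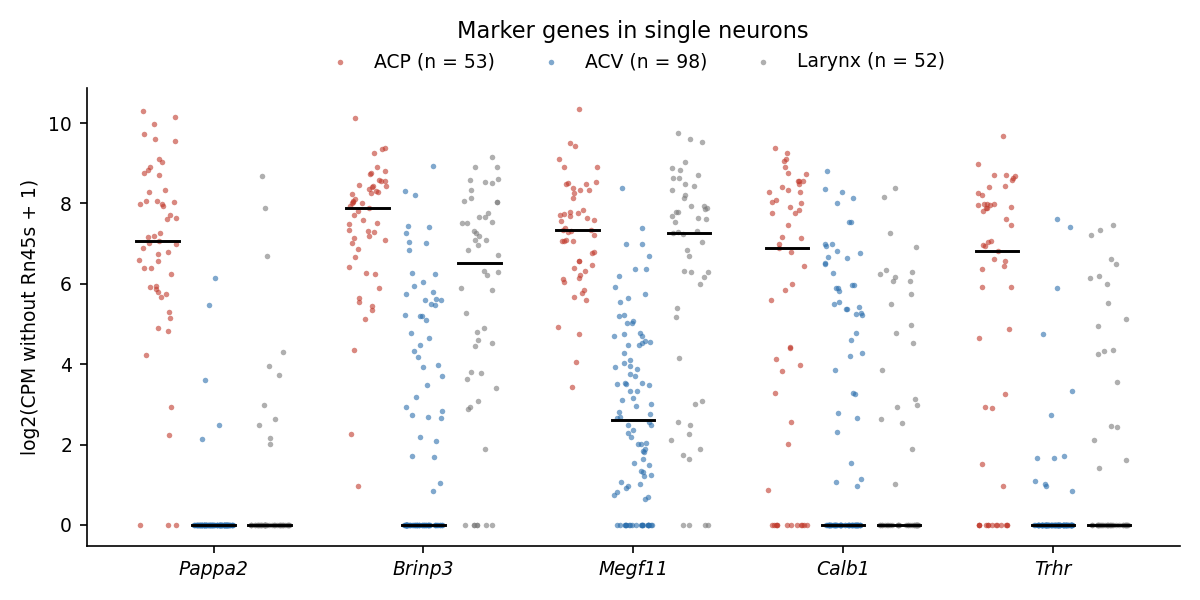
Level of the 5 ACP markers in single neurons, as log2(CPM without Rn45s + 1) on the vertical axis. Each point is 1 neuron, black lines are medians, and colors give the 53 ACP, 98 ACV and 52 Larynx neurons. Pappa2 points lie at 0 for most ACV and Larynx neurons, Megf11 and Brinp3 overlap with Larynx, and Calb1 and Trhr lie at 0 in 12 and 13 ACP neurons.

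All 5 markers were read in 33 ACP neurons, 4 in 13 neurons, 3 in 6 neurons and 2 in 1 neuron. Within ACP the levels of the 3 markers read widely enough to correlate went only weakly together. Spearman's rho over 53 neurons was 0.18 for Pappa2 with Megf11, 0.29 for Pappa2 with Brinp3 and 0.21 for Megf11 with Brinp3. With depth, Rn45s share and genes detected taken out these were 0.04, 0.27 and 0.19. Such points share library preparation, depth and capture. The level of Pappa2 itself went with the share of counts on Rn45s at a rho of 0.38 and with the number of genes detected at -0.31 (n = 53), and the part of these in its spread was not tested.

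Markers that the study named for the other types were lower in ACP than in the type they mark, but many were present. Of the ACV markers 5 of 8 were read in at least 50% of ACP neurons, and 3 after thinning. Of the Larynx markers 2 of 6 were, and 1 after thinning. Of the 8 ACV markers, all 8 were at least 4-fold lower in ACP than in ACV on the log2(CPM + 1) scale. The homeobox gene Hoxa5 had a mean of 10.6 CPM in ACP and 443 CPM in ACV, and the tetraspanin Cd9 had 75.3 against 890 CPM. Ghsr, the ghrelin receptor, was read in 0 of 53 ACP neurons, which allows a share of up to 5.66%. All 6 Larynx markers were at least 4-fold lower in ACP than in Larynx, among them Calca, which encodes calcitonin gene-related peptide, at 52.8 against 2095 CPM. Over all genes with a mean of at least 5 CPM in either type, 1.36% of 11650 were at least 4-fold lower in ACP than in ACV, and 2.39% of 11825 lower than in Larynx. These lists were chosen by the study on the same neurons, so the counts are no independent evidence.

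Glial RNA was present beside the neuronal genes. Of the 10 listed astrocyte markers 9 were read in at least 50% of ACP neurons. Their summed level ran from 219 to 11159 CPM in ACP with a median of 2338, from 130 to 31747 in ACV with a median of 2558, and from 1061 to 18398 in Larynx with a median of 3355. Of the 10 oligodendrocyte-lineage markers 3 were read in at least 50% of ACP neurons, with a sum of 0 to 7688 CPM, and Opalin was at 0. Microglia markers were read less often, 1 of 10 in at least 50% of ACP neurons, with a sum of 0 to 990 CPM. None of the 12 vascular and blood markers reached 50%, their sum had a median of 1.44 CPM, and Flt1 and 3 hemoglobin genes were at 0. The part of glial RNA in the levels below was not tested except where a value without the glial sum is given.

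The main genes of acetylcholine handling were read in all 53 ACP neurons. Ache, which breaks acetylcholine down, had a lowest, median and highest level of 31.8, 1058 and 3885 CPM. Slc18a3, the vesicular acetylcholine transporter, had 73.1, 917 and 2616 CPM. Slc5a7, the choline transporter, and Chat, which makes acetylcholine, had means of 305 ± 239 and 232 ± 180 CPM (SD, n = 53). Per kilobase Slc18a3 was the highest of these, at 429 CPM per kb, before Ache at 260 and Slc5a7 at 54.03. Slc18a3 and Ache went together within ACP (rho = 0.65, n = 53, and 0.65 in ACV). The other pairs of these 4 genes had a rho of -0.22 to 0.41 within ACP.

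Slc10a4, which encodes a transporter-like protein of cholinergic and aminergic synaptic vesicles, was patchier. It was read in 34 of 53 ACP neurons, or 64.2% (exact 95% interval 49.8% to 76.9%), against 94 of 98 ACV and 50 of 52 Larynx neurons. After thinning the shares were 60.4%, 94.9% and 96.2%. Its median was 12.7 CPM in ACP, 620 CPM in ACV and 764 CPM in Larynx neurons, while its highest ACP neuron reached 1880 CPM. All 19 ACP neurons without Slc10a4 reads had reads of Slc18a3 and Ache. Its level went with the number of genes detected at a rho of 0.29 and with depth at 0.15 (n = 53).

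Motor neuron transcription factors were read in part. Of 16 listed, 7 were read in at least 50% of ACP neurons. Isl1, a LIM homeobox factor of motor neurons, had a mean of 220 ± 171.5 CPM (SD, n = 53). The related T-box factors Tbx3 and Tbx2 had means of 81.5 and 78.3 CPM. Tbx2 was 12.3 CPM in ACV and 24.7 CPM in Larynx neurons, whereas Tbx3 was 63.6 CPM in ACV and 9.01 CPM in Larynx neurons. Mnx1, a factor of spinal motor neurons, had no read in ACP. Of 21 Hox genes 17 had a read in any ACP neuron and 4 in at least 50%. The highest was Hoxb2 at 33.6 ± 39.4 CPM (SD, n = 53), and Hoxb5, at 185.4 CPM in ACV, was at 13.6 CPM in ACP.

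Few genes of each receptor list were common in ACP neurons. Of 59 peptide and hormone receptor genes, 54 had a read in any ACP neuron before thinning, 56 in any ACV neuron and 55 in any Larynx neuron. Over all genes 17129 of 24028 had a read in any ACP neuron. Only 9 of the 59 were read in at least 50% of ACP neurons. By mean CPM these were Oprl1, the nociceptin receptor, at 208 ± 142.7, Trhr, Adcyap1r1, the receptor for the peptide PACAP, at 134.5 ± 127.04, Tacr3, the neurokinin B receptor, at 83.8 ± 140.7, Npy2r at 61.9 ± 94.4, Ednrb at 57.04 ± 132.4, the melanocortin receptor Mc4r at 49.5 ± 72.8, Ramp1 at 38.3 ± 51.6 and Sstr1 at 25.2 ± 70.5 (SD, n = 53). The level of Ednrb was 35.2 CPM in the 42 neurons within the Apoe limit.

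Of 36 of these receptors with at least 5 CPM in either type, 10 were at least 4-fold higher and 8 at least 4-fold lower in ACP than in ACV, where 1.79% of all 11650 genes were higher and 1.36% lower. Within the Apoe limit 329 genes in place of 209 were at least 4-fold higher in ACP than in ACV. Against Larynx neurons 4 of 37 receptors were higher and 5 lower, where 1.62% and 2.39% of all genes were. The list holds Trhr, Tacr3, Mc4r, Agtr1b, Cckbr and Ghsr, which the study picked on these neurons. The common receptors differed in the type that shared them. Tacr3 was at 0.597 CPM in ACV but at 60.9 CPM in Larynx neurons. Npy2r was at 44.5 CPM in ACV and 0.866 CPM in Larynx neurons. Oprl1 differed by less than 2-fold between ACP and either type. Among the 43 amine, acetylcholine and cannabinoid receptors, 8 were read in at least 50% of ACP neurons. Cnr1, the cannabinoid receptor, led in CPM at 223.5 ± 191.5, with 118.5 CPM in ACV and 17.1 CPM in Larynx neurons. The nicotinic subunits Chrnb2, Chrna4 and Chrna3 followed at 175.2 ± 157.9, 119.3 ± 148.4 and 76.1 ± 127.9 CPM, and the adrenergic receptor Adra2a was at 40.9 ± 58.05 CPM (SD, n = 53). The muscarinic receptor Chrm2 was lower in ACP, at 27.7 CPM, than in ACV, at 81.1 CPM.

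**Figure D2:**
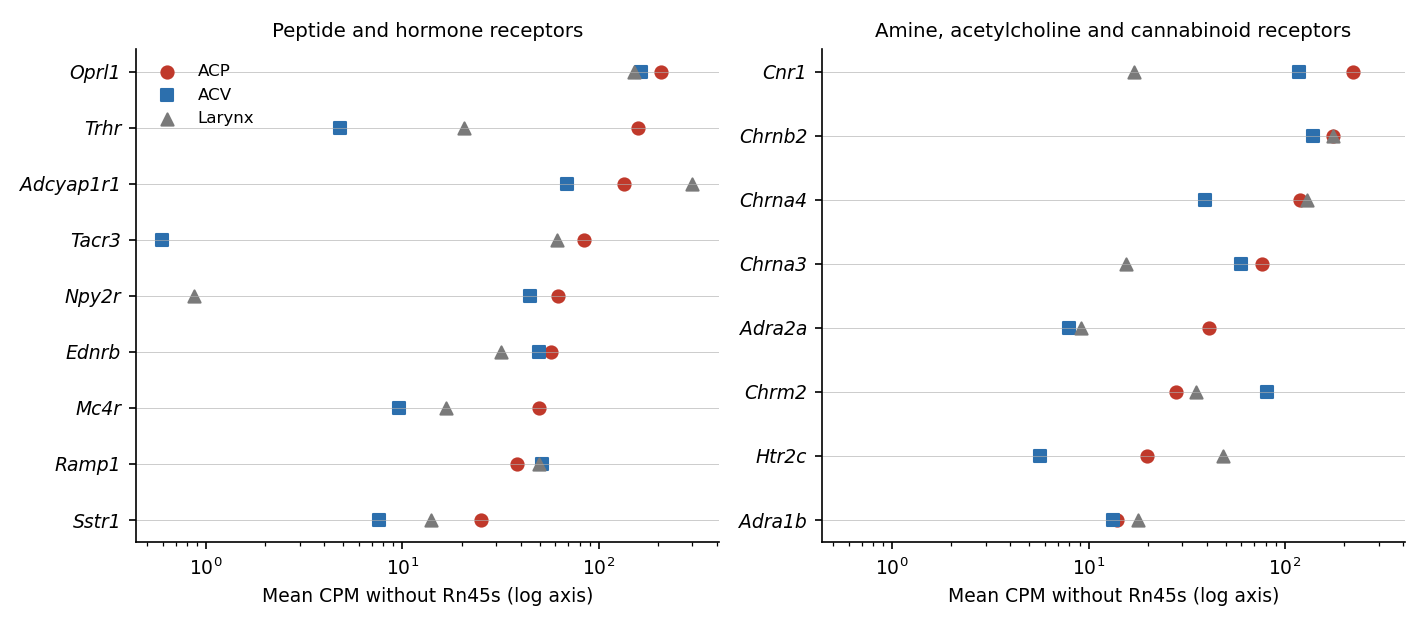
Mean CPM without Rn45s (horizontal log axis) of the receptor genes read in at least 50% of ACP neurons, 9 peptide and hormone receptors at left and 8 others at right. Circles are ACP, squares ACV and triangles Larynx neurons, and spreads between neurons are given in the text. Trhr, Mc4r and Adra2a lie apart from both reference types, and Tacr3 and Npy2r mainly from 1 of them.

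Peptide precursor and processing genes had a median summed level of 4920 CPM in ACP, 5044 CPM in ACV and 8002 CPM in Larynx neurons. Of 38 listed, 22 were read in at least 50% of ACP neurons, led in CPM by the carboxypeptidase Cpe at 1244 ± 632 and by the granin Scg2 at 1040 ± 790 (SD, n = 53). Among precursors of signaling peptides Adcyap1, which encodes PACAP, was at 461 ± 446 CPM against 141.999 CPM in ACV and 138.01 CPM in Larynx neurons. It was read in 51 of 53 neurons, its receptor Adcyap1r1 in 51 as well. Uts2b, which encodes a urotensin-related peptide, was at 93.8 ± 108.4 CPM against 15.1 and 8.96 CPM.

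Receptors for GABA, glycine and glutamate were broadly read. Of 24 GABA and glycine receptor and chloride transporter genes 18 reached 50% of ACP neurons, led in CPM by the GABA-B receptor subunit Gabbr1 at 294 ± 212 and the glycine receptor subunit Glrb at 246.5 ± 188.7. Gabre, the epsilon subunit of the GABA-A receptor, was low at 31.9 ± 36.04 CPM but was at 2.03 CPM in ACV and 4.27 CPM in Larynx neurons. Of 25 glutamate receptor genes 17 reached 50%, led by the AMPA receptor subunit Gria2 at 559 ± 375 CPM and the metabotropic receptor Grm5 at 317 ± 281 CPM (SD, n = 53). Grm5 was at 116.1 CPM in ACV and 69.5 CPM in Larynx neurons. After thinning 17 genes of the GABA and glycine list reached 50% in ACP, 15 in ACV and 15 in Larynx neurons. Of the glutamate receptor genes 11, 9 and 15 did.

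Ion channel genes were likewise common. Of 27 measured sodium, calcium and HCN channel genes 17 reached 50% of ACP neurons, with Scn3b, a sodium channel beta subunit, highest at 289 ± 245 CPM. Of 38 potassium channel genes 22 reached 50%. The inward rectifier Kcnj12 was at 90.6 ± 89.2 CPM (SD, n = 53) against 15.2 CPM in ACV and 17.1 CPM in Larynx neurons. The small-conductance calcium-activated channel Kcnn2 was at 69.6 ± 68.3 CPM against 12.8 and 33.1 CPM. After thinning 14 sodium, calcium and HCN channel genes reached 50% in ACP, 12 in ACV and 15 in Larynx neurons. Of the potassium channel genes 18, 12 and 16 did.

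Adhesion and guidance genes were widely read. Of 40 adhesion genes 37 reached 50% of ACP neurons, and of 43 guidance genes 31 did. After thinning 35 adhesion genes reached 50% in ACP, 25 in ACV and 31 in Larynx neurons, and 28, 22 and 29 guidance genes. The cell adhesion gene Ncam1 was at 934 ± 541 CPM and the receptor phosphatase Ptprd at 477 ± 473 CPM (SD, n = 53). Ptprd was at 49.8 CPM in ACV and 331 CPM in Larynx neurons. The neuropilin Nrp2, a semaphorin co-receptor, was at 333.5 ± 311 CPM. Of the adhesion list 9 of 40 genes were at least 4-fold higher in ACP than in ACV, with a median log2 difference of 1.03 over the list, where 1.79% of all genes were, or 329 genes in place of 209 within the Apoe limit, and the median was 0.01. Over Larynx neurons 6 of 40 were, with a median of 0.46, where 1.62% of 11825 genes were and the median was -0.03. The adhesion list holds Megf11 and other genes that the study singled out on these neurons.

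Receptors for trophic factors included 12 of 15 read in at least 50% of ACP neurons. After thinning 12 reached 50% in ACP, 9 in ACV and 10 in Larynx neurons. Ntrk2, the BDNF receptor, was at 318 ± 277 CPM, and Lifr, the receptor for leukemia inhibitory factor, at 254 ± 296 CPM. Of the co-receptors of Ret, Gfra2 was at 108.1 ± 96.1 CPM and Gfra1 at 18.9 ± 51.5 CPM (SD, n = 53). The order was the other way in Larynx neurons, with 9.36 CPM for Gfra2 and 770 CPM for Gfra1. Ret itself was at 176.5 ± 184.9 CPM in ACP. In the insulin-like growth factor system around Pappa2, 8 of 18 genes reached 50%, among them the binding proteins Igfbp2 at 87.5 ± 106.6 CPM and Igfbp5 at 41.1 ± 69.1 CPM and the receptor Igf1r at 33.4 ± 45.3 CPM. Igfbp2 was at 64.9 CPM within the Apoe limit. Igf1 was at 8.45 CPM in ACP and 64.7 CPM in ACV.

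Against the higher of the 2 reference types, 57 of 11027 genes (0.517%) with a mean of at least 5 CPM in ACP were at least 4-fold higher in ACP. Only 17 of the 57 were read in at least 50% of ACP neurons, and in 18 a single neuron gave over 50% of the summed level. The 10 of largest fold were Cldn1, Pappa2, Slc38a11, Gc, Sema3d, Grpr, Pcdh18, Pxdc1, D930028M14Rik and Trhr. Cldn1, a tight junction claudin, had a lowest, median and highest level of 0, 30.95 and 424 CPM, was read in 33 of 53 ACP neurons, and had means of 0.940 CPM in ACV and 0.701 CPM in Larynx neurons. Sema3d, a secreted semaphorin, was at 102.7 ± 139.4 CPM against 3.35 and 8.62 CPM. Pcdh18, a protocadherin, was at 127.6 ± 157.8 CPM against 6.08 and 14.1 CPM. The unannotated transcript D930028M14Rik was at 167.98 ± 138.5 CPM (SD, n = 53) against 20.4 and 21.4 CPM.

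The other 4 rested on fewer neurons. Slc38a11, an amino acid transporter family member, was read in 15 of 53 ACP neurons, Grpr, the gastrin-releasing peptide receptor, in 12, Pxdc1 in 9 and Gc, which encodes the vitamin D binding protein, in 8. Of the summed Gc level 55.5% came from 1 neuron, and it was read in 0 of 98 ACV and 0 of 52 Larynx neurons, which allows shares of up to 3.06% and 5.77%. The remaining genes of the 57 that reached 50% of ACP neurons were Calb1, Dpy19l1, Cntn4, Tenm1, Uts2b, Kcnj12, Adra2a, Agtrap, Sgcz, Gabre and Onecut3. Of the 60 genes that the study listed as higher in ACP, 51 were at least 4-fold higher than in ACV and 22 than in Larynx, a count fixed by how the list was made.

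The spread between ACP neurons was measured for the 7813 genes with a mean of at least 10 CPM and reads in at least 50% of them. Their coefficient of variation (CV, the SD over the mean) ran from 0.265 to 5.67 with a median of 1.14. To set aside the fall of the CV with level, the squared CV was compared with the running median of the genes nearest in mean. Among the 10 genes furthest above that median were Fibcd1, Mbp, Ttr, Lamp5, Cartpt, Ccnd2, 9030624G23Rik, Slc10a4 and Plxna4, by 4.08 to 3.07 on the log2 scale. Ptgds was next at 2.97.

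These genes were of different kinds. Mbp, which encodes a myelin protein, had a median of 89.1 CPM and a highest neuron at 4756 CPM. It was as far above like genes in ACV, at 4.36, and less so in Larynx, at 2.94. Ttr, which encodes the choroid plexus protein transthyretin, had a median of 17.02 CPM and a highest neuron at 3396 CPM, and its excess was 6.69 in ACV and 7.18 in Larynx neurons. For both genes the wide spread was thus not particular to ACP.

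Fibcd1, Slc10a4 and Plxna4 had a smaller excess in the reference types, a difference that was not tested. These genes were chosen for their excess in ACP, so lower values in the other types are no finding. Fibcd1, a membrane receptor that binds acetylated sugars such as chitin, had a lowest, median and highest level of 0, 17.1 and 3885 CPM, with 36.01% of its sum in 1 neuron. Its excess was 4.08 in ACP, 1.14 in ACV and 1.12 in Larynx neurons. That of Slc10a4 was 3.16, 1.18 and 1.17. In the 42 ACP neurons within the Apoe limit the excess was 4.23 for Fibcd1 and 3.30 for Slc10a4. Plxna4, a plexin, had a median of 98.5 and a highest level of 2711 CPM, and an excess of 3.07, 0.16 and 0.07. Among only the 34 ACP neurons with at least 1000000 counts without Rn45s the excess of Plxna4 was 1.22. In Lamp5, Cartpt, Ccnd2 and 9030624G23Rik 1 neuron held 54.2% to 78.2% of the sum. The mean level of 9030624G23Rik was 10.8 CPM, and 2.62 CPM within the Apoe limit.

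**Figure D3:**
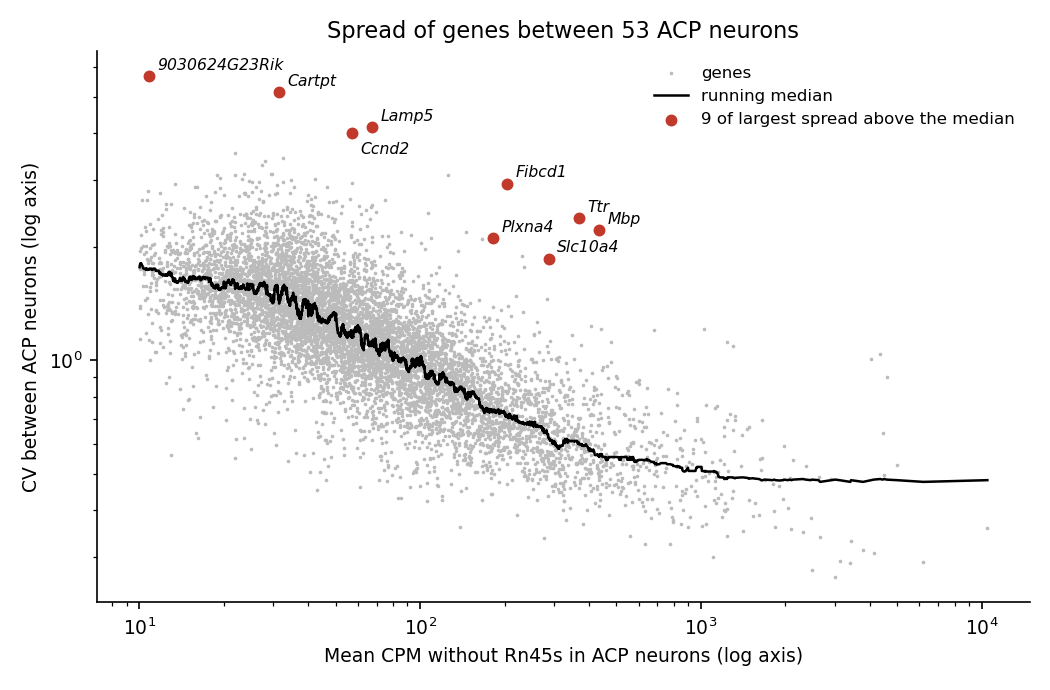
Coefficient of variation between 53 ACP neurons against mean CPM without Rn45s, both on log axes. Each gray point is 1 of 7813 genes, the black line is the running median of genes of like level, and the 9 red points are among the 10 genes furthest above it in squared CV, such as Fibcd1 and Slc10a4.

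The 10 genes of smallest spread for their level included genes of mitochondrial and ribosomal proteins. Tomm6, a subunit of the outer mitochondrial import complex, had 13.005 ± 7.28 CPM (SD, n = 53), and a log2 squared CV of -3.19 relative to like genes. Cox7c, a subunit of cytochrome oxidase, had 42.8 ± 19.4 CPM. Atp5l, Rpl28, Rpl17, Rpl39 and Rpl12 also stood among the 10 lowest, with Sncb, Serf2 and Snrpc. Tomm6, Rpl28, Serf2 and Rpl12 share exon sequence with other genes in the annotation.

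Between presence and absence lay 5835 genes with reads in 25% to 75% of ACP neurons. The 10 with the highest mean among the neurons that had reads included Slc10a4, Xist, Fibcd1, Gpr37l1, Mfn1, Rgs11, Serpinf1, Chodl and Fgf10, from 447 CPM for Slc10a4 down to 169.1 CPM for Fgf10. Olig1 was next at 161.8 CPM. Serpinf1, which encodes a secreted neurotrophic factor, was read in 36 of 53 ACP neurons and was at 126.9 ± 190.9 CPM (SD, n = 53), 114.8 CPM in ACV and 19.8 CPM in Larynx neurons. Chodl, a gene known from fast motor neurons, was read in 29 of 53, with a mean of 92.8 CPM against 485 CPM in Larynx neurons. Fgf10, a secreted growth factor, was read in 22 of 53 and was at 70.2 CPM, at 11.4 CPM in ACV and at 57.3 CPM in Larynx neurons. Rgs11, which shares exon sequence with Arhgdig, and Mfn1, a mitochondrial fusion protein, were each read in 39.

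Xist, the RNA of the inactive X chromosome in females, was read in 34 ACP neurons, and the labels give no sex. Of these 34 neurons 8 also had reads of any of 4 Y-linked genes, 18 neurons had Y-linked reads without Xist, and 1 had neither. Xist overlaps Tsix on the opposite strand, and reads of the 2 cannot be told apart without strand.

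**Figure D4:**
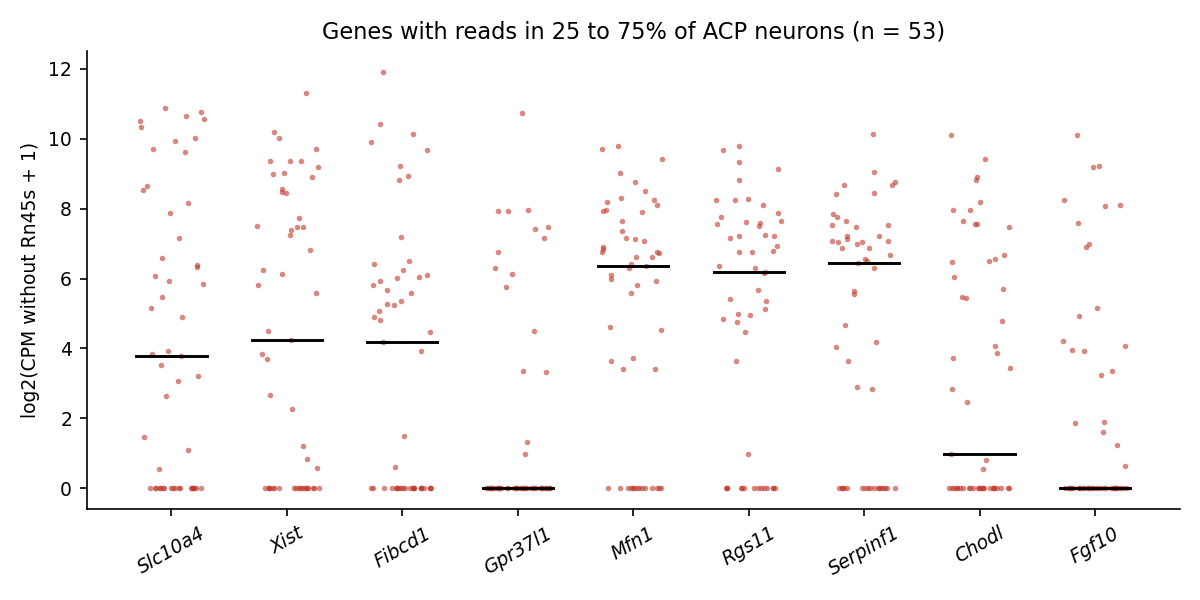
Level of 9 named genes with reads in 25% to 75% of ACP neurons, as log2(CPM without Rn45s + 1). Each point is 1 of 53 ACP neurons and black lines are medians. Slc10a4 and Fibcd1 run from 0 to 1880 and 3885 CPM, and the medians of Gpr37l1 and Fgf10 are at 0.

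Gene pairs were correlated over the 53 ACP neurons for 3994 genes with a mean of at least 20 CPM and reads in at least 80% of neurons. The median rho of the 7974021 pairs was 0.03. A rho of at least 0.6 was reached by 15188 pairs (0.190%) and one of at most -0.6 by 3031 (0.0380%). Over the same genes 5207 and 260 pairs passed in the 98 ACV neurons and 6200 and 990 in the 52 Larynx neurons. These genes were chosen by their level and reads in ACP, so lower counts in the other types are no finding. The types also differ in number of neurons, and Larynx neurons in depth. With total, Rn45s share and genes detected taken out of the ranks, 10493 and 2131 pairs passed, and with the glial sum taken out 13759 and 2953. Over the 42 ACP neurons within the Apoe limit the same genes gave 32408 and 9693 pairs.

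Of the 10 highest pairs 3 joined long noncoding RNAs. The transcripts Meg3, Snhg11 and Malat1 went together at a rho of 0.96 for Meg3 with Snhg11, 0.90 for Malat1 with Meg3 and 0.87 for Malat1 with Snhg11 (n = 53). The partial values with depth, Rn45s share and genes detected taken out were 0.96, 0.90 and 0.88, and in ACV neurons the 3 pairs had 0.98, 0.93 and 0.91. This group was therefore as tight in ACV as in ACP.

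The other 7 of the 10 highest pairs were Mllt11 with Zwint (0.88), Calm2 with Gap43 (0.88), Gm1821 with Tuba1c (0.88), Gap43 with Mllt11 (0.87), Cfl1 with Ppia (0.87), Chchd10 with Tuba1b (0.87) and Mdh1 with Zwint (0.87). Gap43 encodes a growth cone protein, Cfl1 the actin-severing cofilin, Ppia a cyclophilin and Mdh1 the cytosolic malate dehydrogenase. Their partial values with depth, Rn45s share and genes detected taken out ran from 0.82 to 0.87, and with the glial sum taken out from 0.84 to 0.87. In ACV the same 7 pairs had 0.61 to 0.86 and in Larynx 0.29 to 0.59. The pairs were chosen as highest in ACP, so lower values in the other types are no finding. Tubulin, calmodulin and ubiquitin genes have near-identical copies, so the pairs with them are uncertain.

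Each of the 5 lowest pairs joined a gene of a cytosolic protein and a gene of a membrane protein. They were Clstn1 with Ywhaz (-0.82), Sdc3 with Ubb (-0.81), Slc22a17 with Cfl1 (-0.81), Aplp1 with Ppp1ca (-0.80) and Slc22a17 with Ubb (-0.79), with partial values for depth, Rn45s share and genes detected of -0.80 to -0.75. Clstn1 encodes the adhesion protein calsyntenin, Sdc3 a syndecan and Aplp1 an amyloid precursor-like protein, whereas Ubb encodes ubiquitin and Ywhaz a 14-3-3 protein. In ACV the 5 pairs had -0.49 to -0.29 and in Larynx -0.72 to -0.38. Over all pairs past these limits length moved with the sign of rho. The exon lengths of the 5 named pairs ranged from 4662 and 4118 bases for Clstn1 and Ywhaz to 5989 and 1675 bases for Sdc3 and Ubb. The longer gene of a pair had a median 3.50 times the exon length of the shorter one in the pairs of at most -0.6, 1.70 times in the pairs of at least 0.6 and 2.01 times in all pairs. The part of transcript length in the pairs was not tested.

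**Figure D5:**
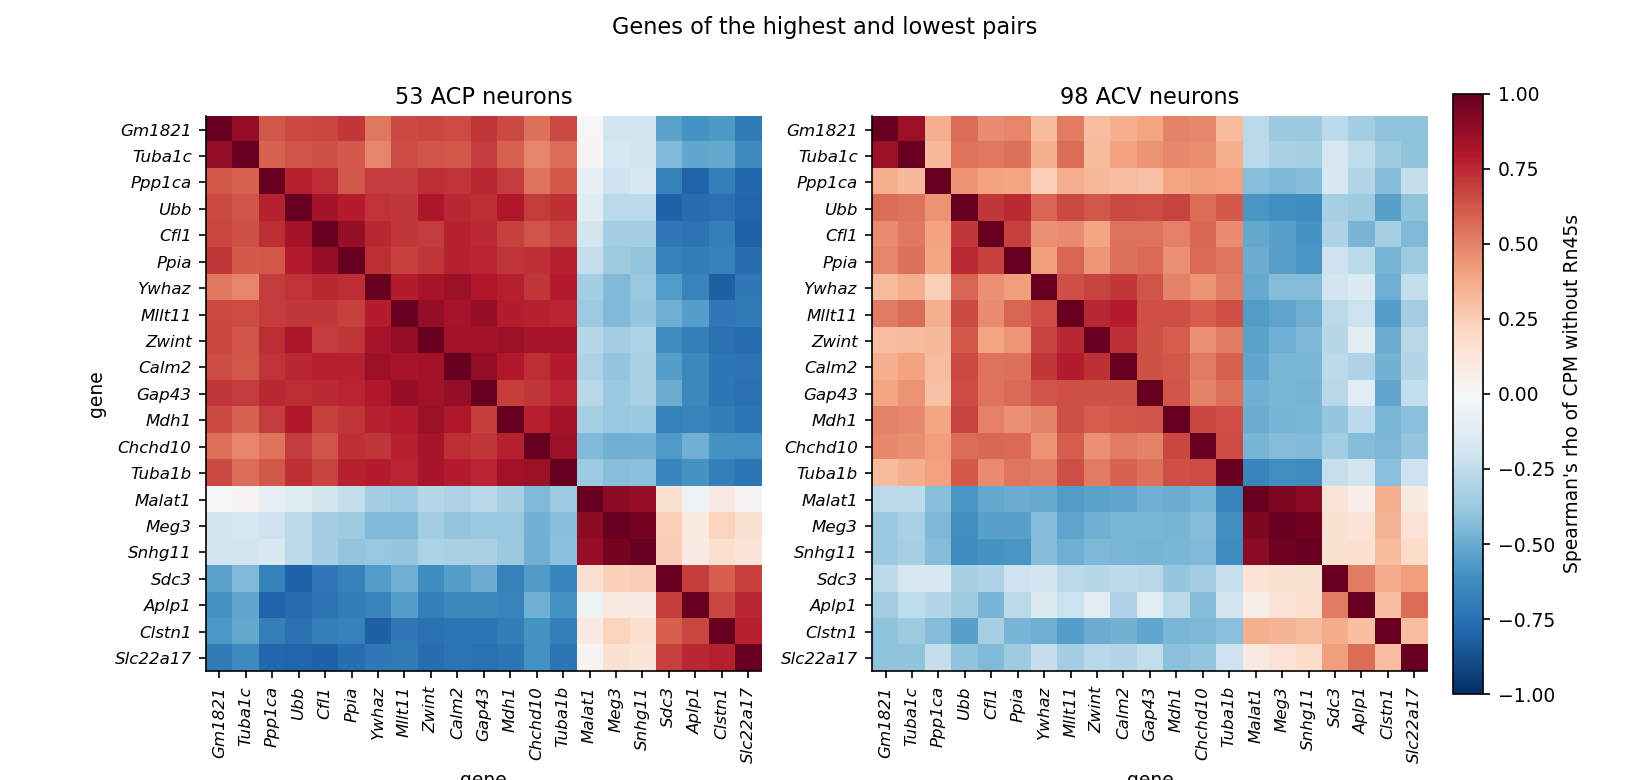
Spearman's rho of CPM without Rn45s between the genes of the 10 highest and 5 lowest pairs, in 53 ACP neurons at left and 98 ACV neurons at right, from -1 (blue) to 1 (red), with genes in the same order on both axes. In ACP genes such as Cfl1, Ppia, Ubb and Ywhaz form a red block set against Sdc3, Aplp1, Clstn1 and Slc22a17 in blue, while Malat1, Meg3 and Snhg11 form a block of their own in both types.

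Partners of the markers were ranked in the same way. The 3 genes of highest rho with Pappa2 were Ptprd (0.68), Sptbn1, a spectrin (0.66), and Mycbp2, a ubiquitin ligase of axons (0.64). With depth, Rn45s share and genes detected taken out these were 0.69, 0.67 and 0.65, in ACV neurons 0.05, -0.01 and -0.05, and in Larynx neurons -0.16, -0.23 and -0.20. Pappa2 had few reads in both of these types. For Brinp3 they were the adhesion protein Nptn (0.68), the tetraspanin Cd151 (0.66) and the protease Lgmn (0.62), with partial values of 0.68, 0.68 and 0.64. These pairs had 0.02, 0.07 and 0.11 in ACV and 0.41, 0.36 and 0.10 in Larynx neurons. Brinp3 was read in under 50% of ACV neurons. For Megf11 the highest values were lower, with Slc22a17 (0.57), Casc4 (0.54) and Syngr1, a synaptic vesicle protein (0.53), and fell short of 0.6. All of these partners were chosen as highest in ACP, so lower values in the other types are no finding. Exon lengths were 22822, 17492 and 19248 bases for the partners of Pappa2, and 6168, 2741 and 2323 bases for those of Brinp3. The part of transcript length in these pairs was not tested.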

How the data were processed

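Single Amb neurons were profiled by Smart-seq2 and sequenced as 75 bp paired-end reads. The authors trimmed reads with Skewer, aligned them to mm10 with STAR 2.6.1d, describe removing shallow neurons and those over 1800 Apoe counts, and deposited raw read counts per gene symbol without normalization. The counter and annotation are not given in the sources used here. A deposited table named CPM was not used, since its columns do not sum to 1000000. Types are the deposited clusters.

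Counts were divided by each neuron's total without Rn45s. Means, SDs between neurons, exact Clopper-Pearson 95% intervals, Spearman's rho and folds with 1 CPM added were computed. No test was made. A share of 0 was given a limit of 3 neurons. Intervals and limits cover counting error only. Positions, overlaps and exon lengths came from GENCODE, matched for 23502 of 24029 symbols. Named genes were the markers, the highest read members of gene lists, and the 10 genes (5 for lowest pairs, 3 per marker) heading each ranking. Members, lists and rules were chosen with earlier results of these data known. The alternatives were other library sizes (TMM by edgeR, median of ratios, Rn45s included), thinning, subsets of neurons, Pearson's r and other filters and pseudocounts, and the subset within 1800 Apoe counts was added after seeing the data. Functions were tested on simulated data. Python 3.11.15, numpy 2.4.6, scipy 1.17.1, R 4.3.3 and edgeR 4.0.16 were used. A few genes that these rules pick are not reported here.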

Additional observations from a re-analysis of the deposited data

How the results depend on the processing

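Of the recomputed values 29 moved by more than their limit (1 SD between neurons, or 1.5 times for a count). All others stayed within it. The recomputed values were counts, shares and mean levels, which have no direction, so a change of direction could not be tested. Counts of gene pairs and of genes past 4-fold moved most. Subsets also hold fewer neurons, and the cause of the moves was not tested. With Rn45s left in the totals 69421 pairs had a rho of at least 0.6 and 366 of at most -0.6, and 83 and 58 genes were at least 4-fold lower in ACP than in ACV and Larynx. Pairs of at most -0.6 numbered 1710 with TMM and 1922 with median-of-ratios factors. After thinning 6 of the 10 most variable genes were at least 4-fold above like genes in squared CV, while Lamp5, Cartpt, Ccnd2 and 9030624G23Rik no longer passed the filter on level and reads and had no value, and 8397 and 1681 pairs passed. In the 26 ACP neurons with at most 900 Apoe counts Pappa2 was read in 100%, 87982 and 41474 pairs passed, 512 genes were higher and 286 lower than in ACV, and 382 higher and 549 lower than in Larynx. In the 34 neurons with at least 1000000 counts 23763 and 10299 pairs passed, and 994 genes were higher and 498 lower than in the 4 Larynx neurons that deep. Within 1800 Apoe counts, a subset chosen after seeing the data, 31913 and 9649 pairs passed and 329 genes were higher than in ACV. Pearson's r of log2 values gave 31802 and 905 pairs. With a pseudocount of 5 CPM 61 genes were higher and 39 lower than in ACV, and 44 higher and 64 lower than in Larynx. The number of pairs and of genes past a fold therefore depends on the setting.

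No paired analysis was possible because no result came from a test and neurons of the types share no number. With no mouse, litter or plate named for a neuron, type and batch cannot be told apart. The methods place heart and larynx tracer in different mice, so for ACP against Larynx type and animal are confounded. Larynx neurons had the lower totals, and shares of neurons with reads are compared after thinning. PCR reads without molecular identifiers are not independent molecules.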
